A study of Mus musculus with 10 samples.

Results

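Genes that carry fatty acids from the blood into the heart muscle cell were examined in left ventricular RNA. They were taken by name from the deposited tables, in which 9 of 29564 listed genes bear these symbols: Lpl, Gpihbp1, Vldlr, Cd36, Slc27a1, Slc27a4, Fabp3, Fabp4 and Fabp5. Polyadenylated RNA was sequenced from the left ventricle of 5 mice of the control group and 5 of the HFD+mTAC group, wild-type C57BL6 males (C57BL/6J in the study's methods) whose treatment is labelled as vehicle in both groups. Control mice had no operation and ate standard chow, whereas HFD+mTAC mice ate a high-fat diet (HFD) and had a moderate transverse aortic constriction (mTAC), in which the aortic arch is surgically narrowed and the ventricle must pump against raised pressure. The vehicle was a mixture of DMSO, polyethylene glycol and water, described as 10 mL/kg each day over 6 to 9 weeks. The study's methods give this schedule for mice of the disease models and name none for controls. The study also sequenced hearts taken after a single dose of vehicle. Diet and operation were applied together, so the effect of either alone cannot be told apart in these groups. Libraries were made from whole ventricular tissue, in which fewer cells of a type and less RNA per cell cannot be told apart.

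Fatty acids are the main fuel of the adult heart. They reach it bound to albumin or as triglyceride inside lipoproteins, and lipoprotein lipase, made largely by cardiomyocytes, frees them from triglyceride at the capillary wall after GPIHBP1 has carried the enzyme across the endothelial cell. The freed fatty acids pass through membrane proteins such as CD36 and the Slc27 (FATP) transporters and are then held in solution by small fatty acid binding proteins of the cytosol.

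Libraries held 34.2 to 53.7 M estimated counts each, and 12.7 to 21.1 M of these lay on nuclear protein-coding genes. Mitochondrially encoded genes took 43.79 to 52.66% of the counts, with the lowest shares in control mice TT-583 and TT-584 (mice are named as in their labels, and values listed mouse by mouse run in the order TT-583, TT-584, TT-585, TT-586, TT-587 for controls and TT-588, TT-589, TT-590, TT-591, TT-592 for the HFD+mTAC group). Cardiomyocyte markers were abundant in every mouse (summed level of 8 markers 13896 to 19861 TPM), as is known of this tissue. Differences were read from one edgeR quasi-likelihood fit over 13315 genes with Benjamini-Hochberg adjustment and a threshold of 0.05 on adjusted p, and normalized counts are given as CPM (counts scaled to a common library size) after TMM scaling. This fit called 8 genes, or 0.0601% of those tested, and 1099 genes (8.25%) had an unadjusted p under 0.05.

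None of the 8 members that could be tested passed the adjusted threshold of edgeR, and 2 of the 8 (Lpl and Fabp3) had an unadjusted p under 0.05. The same 2 genes had normalized counts that did not overlap between the groups, a pattern shown by 261 of all genes tested (1.96%). Lpl was lower in all 5 HFD+mTAC mice and Fabp3 was higher in all 5. The estimates of 5 members were above 0 and those of 3 were below 0, with a median log2 fold change of 0.13 for the 8 members and 0.0013 for all genes tested. DESeq2 called 1 member, Lpl, against 120 of the 13046 genes it gave an adjusted p (0.92%). The ninth member, Slc27a1, did not pass the filter on low counts.

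**Figure D1:**
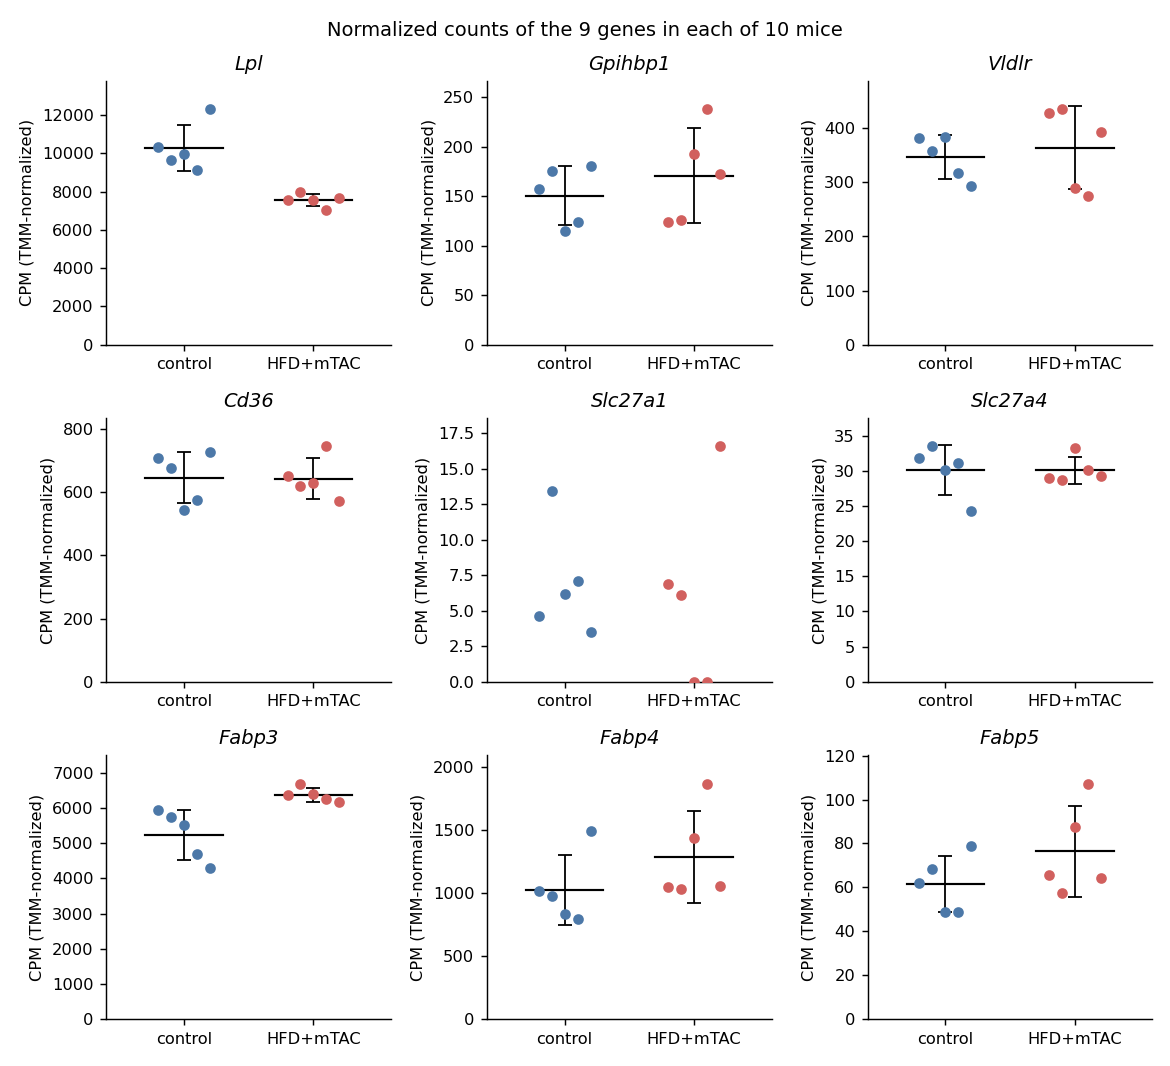
Normalized counts (CPM, linear axis from 0) of the 9 genes, with 1 point per mouse for 5 control and 5 HFD+mTAC mice; bars are the mean and SD and are left out for Slc27a1, which is listed at 0 in 2 mice. The HFD+mTAC points lie below all control points for Lpl, at 7044 to 7965 CPM, and above them for Fabp3, at 6160 to 6699 CPM, and overlap for the other genes.

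Lpl (chromosome 8, 68880491 to 68907448, GRCm38, plus strand) encodes lipoprotein lipase, the enzyme that releases fatty acids from circulating triglyceride. Its normalized counts in the 5 controls were 10330, 9682, 9994, 9134 and 12310 CPM. In the 5 HFD+mTAC mice they were 7572, 7965, 7574, 7044 and 7674 CPM. The lowest control mouse was therefore above the highest HFD+mTAC mouse, and the HFD+mTAC mice were closely grouped (SD 333 CPM) compared to controls (SD 1212 CPM). The mean was 10290 CPM in controls and 7566 CPM in HFD+mTAC mice. The difference was -0.44 on the log2 scale (SE 0.095, 95% confidence interval -0.65 to -0.24), or 0.735-fold.

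For this difference edgeR gave an unadjusted p of 0.00047, the 33rd smallest of the 13315 genes tested, and an adjusted p of 0.185. The two-sided exact permutation test of log2 CPM gave p = 0.00794, the smallest that 5 mice against 5 allow. Groups of 5 that do not overlap always give this value, so it adds nothing to the lack of overlap. DESeq2 gave an adjusted p of 0.000417, and the adjusted p of the other 21 fits was between 0.151 and 0.666. Lpl was below control in all 22 of these fits, with log2 fold changes of -0.48 to -0.37.

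On the TPM scale, which corrects for transcript length and is scaled within each mouse, Lpl levels were 342 to 514 TPM in controls and 259 to 361 TPM in HFD+mTAC mice (two-sided exact permutation test of log2(TPM + 1), p = 0.0159). HFD+mTAC mouse TT-592, at 361 TPM, lay above control mouse TT-586, at 342 TPM, so that the groups overlapped there. On the deposited TPM scale, the median log2 difference, HFD+mTAC against control, was -0.108 over the 2655 genes with a mean of at least 5 TPM. Over all genes tested it was -0.0324. These medians are a description and were not tested. For TPM rescaled over the genes kept, the same medians were 0.0377 and 0.0236. After TPM was rescaled over the genes kept, Lpl no longer overlapped between the groups, at 2435 to 3434 in controls and 2032 to 2228 in HFD+mTAC mice.

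Cardiomyocyte markers moved in the same direction as Lpl. Of 8 such markers, 7 were lower in HFD+mTAC mice with a median log2 fold change of -0.17, and none passed the adjusted threshold. Their summed level was taken on the deposited scale, whose median differences are given above. It was 16201 to 19861 TPM in controls and 13896 to 16332 TPM in HFD+mTAC mice (two-sided exact permutation test, p = 0.0159). Their mean log2 CPM was 12.13 ± 0.089 (SD, n = 5) in controls and 11.98 ± 0.14 (SD, n = 5) in HFD+mTAC mice and did not pass the same exact permutation test (p = 0.0873). Among these 8 markers, the lowest log2 fold change was -0.22 for Tnni3, the cardiac inhibitory troponin (edgeR adjusted p = 0.602). The highest was 0.016 for Actn2 (edgeR adjusted p = 0.993), and that of Lpl was -0.44. The part of these markers in the Lpl result was not tested.

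Gpihbp1 (chromosome 15, 75596628 to 75599481, plus strand) encodes the endothelial protein that binds lipoprotein lipase and moves it to the capillary lumen. Its normalized counts were 157, 176, 114, 124 and 180 CPM in the 5 controls, and 124, 126, 193, 238 and 173 CPM in the 5 HFD+mTAC mice. Mice TT-588 and TT-589 lay at the low end of the control range, mouse TT-592 lay inside it and mice TT-590 and TT-591 lay above it. Gpihbp1 thus had a log2 fold change of 0.18 (SE 0.19, 95% confidence interval -0.23 to 0.59, edgeR adjusted p = 0.864), and without HFD+mTAC mouse TT-591 it was 0.033.

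The estimate for Gpihbp1 was larger where transcript length was taken into account, at 0.42 with limma on log2(TPM + 1) and 0.40 with lengths as an offset, and edgeR or limma adjusted p-values there were 0.611 and 0.637. On TPM rescaled over the genes kept, levels were 324 to 408 in controls and 400 to 655 in HFD+mTAC mice (two-sided exact permutation test of this gene alone, p = 0.0159). The highest control mouse therefore lay above the lowest HFD+mTAC mouse. Deposited levels were 45.0 to 74.8 TPM in controls and 52.6 to 84.8 TPM in HFD+mTAC mice. They also overlapped (two-sided exact permutation test of log2(TPM + 1), p = 0.206). The average effective length of Gpihbp1, the transcript length that the authors' quantification assigned to it, was 419 ± 43.3 bases (SD, n = 5) in controls and 368 ± 39.3 bases (SD, n = 5) in HFD+mTAC mice, which did not pass the exact permutation test (p = 0.0952, adjusted over 9 members 0.44).

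The ratio of Lpl to its carrier Gpihbp1 separated the groups on the TPM scale. The ratio of TPM was 8.17, 6.68, 8.45, 7.49 and 9.18 in the 5 controls. In the 5 HFD+mTAC mice it was 5.40, 4.93, 4.48, 3.10 and 4.64, so that every HFD+mTAC mouse lay below every control mouse. The mean was 7.99 ± 0.954 (SD, n = 5) in controls and 4.51 ± 0.86 (SD, n = 5) in HFD+mTAC mice. The ratio of CPM, which carries no length correction, was 55.1 to 87.3 in controls and 29.6 to 63.1 in HFD+mTAC mice and overlapped. Ratios are given as a description with no test.

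**Figure D2:**
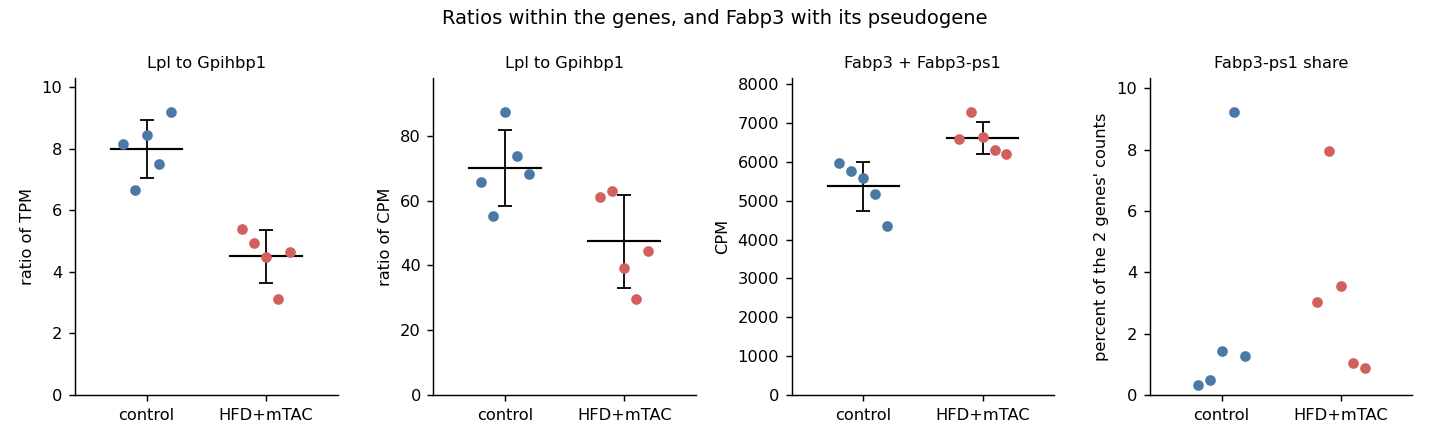
One point per mouse for 5 control and 5 HFD+mTAC mice, with mean and SD in the first 3 panels: the ratio of Lpl to Gpihbp1 by TPM and by CPM, the summed CPM of Fabp3 and its pseudogene Fabp3-ps1, and the pseudogene's percent of their summed counts. The TPM ratio lies at 3.10 to 5.40 in HFD+mTAC mice and 6.68 to 9.18 in controls, and the pseudogene share is highest in mice TT-586 and TT-589.

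Vldlr (chromosome 19, 27216484 to 27254231, plus strand) encodes a receptor for triglyceride-rich lipoproteins. Normalized counts were 382, 358, 384, 317 and 293 CPM in the 5 controls, and 428, 435, 290, 275 and 393 CPM in the 5 HFD+mTAC mice. The HFD+mTAC mice lay on both sides of the control range, with TT-588, TT-589 and TT-592 above the highest control and TT-590 and TT-591 below the lowest. Its log2 fold change was 0.07 (SE 0.14, 95% confidence interval -0.24 to 0.38, edgeR adjusted p = 0.938), and its sign turned in 4 of 22 other fits.

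Cd36 (chromosome 5, 17781690 to 17888801, minus strand) encodes a scavenger receptor that takes up long-chain fatty acids at the surface of cardiomyocytes and endothelial cells. Its normalized counts were 708, 677, 544, 576 and 726 CPM in the 5 controls, and 652, 620, 629, 745 and 572 CPM in the 5 HFD+mTAC mice. The group means of 646 ± 81.5 CPM (SD, n = 5) and 644 ± 64 CPM (SD, n = 5) lay within the spread of either group. The log2 fold change was -0.0061 (SE 0.10, edgeR adjusted p = 0.995), and its 95% confidence interval of -0.23 to 0.22 corresponds to 0.852-fold to 1.16-fold.

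Slc27a4 (chromosome 2, 29802634 to 29817522, plus strand) encodes FATP4, a transporter that also links fatty acids to coenzyme A. Its normalized counts were 31.8, 33.5, 30.1, 31.1 and 24.2 CPM in the 5 controls, and 28.9, 28.7, 33.3, 30.2 and 29.3 CPM in the 5 HFD+mTAC mice. All 5 HFD+mTAC values lay within the control range. Between the groups the log2 fold change was -0.0054 (SE 0.10, 95% confidence interval -0.22 to 0.21, edgeR adjusted p = 0.995). The signs of Cd36 and Slc27a4 each turned in 8 of 22 other fits.

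Slc27a1 (chromosome 8, 71568882 to 71587302, plus strand) encodes FATP1, a related transporter of muscle and fat. Its estimated counts were 96, 256, 126, 101 and 45 in the 5 controls, and 108, 101, 0, 0 and 270 in the 5 HFD+mTAC mice. The gene is listed at 0 in mice TT-590 and TT-591 and had its highest values in control mouse TT-584 and HFD+mTAC mouse TT-592. Of 11041 genes with a median of at least 50 counts, 166 (1.5%) are also listed at 0 in some mouse. Whether the listed 0 values of Slc27a1 are failed estimates was not tested. Of the 31-base words of its annotated transcripts, 3.02% also occur in transcripts of other genes. No fold change is given for Slc27a1.

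Fabp3 (chromosome 4, 130308595 to 130315463, plus strand) encodes the heart-type fatty acid binding protein, which carries fatty acids through the cytosol of the cardiomyocyte. Its normalized counts were 5953, 5741, 5505, 4701 and 4308 CPM in the 5 controls. In the 5 HFD+mTAC mice they were 6381, 6699, 6415, 6251 and 6160 CPM. The lowest HFD+mTAC mouse lay above the highest control mouse by a narrow margin, with 6160 against 5953 CPM, and the control mice were more spread (SD 705 CPM) than the HFD+mTAC mice (SD 205 CPM). The log2 fold change was 0.28 (SE 0.10, 95% confidence interval 0.067 to 0.50), or 1.22-fold.

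For Fabp3, edgeR gave an unadjusted p of 0.0144 and an adjusted p of 0.443, and the adjusted p was 0.22 to 0.869 over 22 other fits, all with an estimate above 0. The exact permutation test of log2 CPM gave p = 0.00794, the smallest possible and again the value that groups without overlap always give. The deposited TPM did not separate the groups, at 597 to 1387 TPM in controls and 795 to 1202 TPM in HFD+mTAC mice (two-sided exact permutation test, p = 0.762). TPM rescaled over the genes kept also overlapped, at 4251 to 8264.5 in controls and 6408 to 7411.5 in HFD+mTAC mice. The two-sided exact permutation test gave p = 0.302 there. The highest deposited TPM was that of control mouse TT-583, whose effective length for Fabp3 was the shortest. That length was 747 bases, against 825 to 1109 bases in the other mice.

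Part of the Fabp3 sequence is shared with a processed pseudogene. Fabp3-ps1 (chromosome 10, 86731987 to 86732388, minus strand) is an intronless copy of the coding sequence that differs from it at 3 of 402 bases, and 279 of the 793 words of 31 bases in the annotated Fabp3 transcript occur in it as well. The third exon of Fabp3, chr4:130313954-130314055 on the plus strand, and the matching stretch of Fabp3-ps1, chr10:86732041-86732142 on the minus strand, hold 2 of the 3 differences. They are shown, from the GENCODE M21 transcripts of GRCm38, because a read from this stretch that covers neither base cannot tell the genes apart. Capitals mark the bases that differ.
Fabp3: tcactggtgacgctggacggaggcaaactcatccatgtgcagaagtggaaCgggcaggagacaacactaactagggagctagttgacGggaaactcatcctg
Fabp3-ps1: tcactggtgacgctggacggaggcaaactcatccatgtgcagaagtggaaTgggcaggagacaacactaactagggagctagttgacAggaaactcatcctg

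The share of the summed Fabp3 and Fabp3-ps1 counts that was assigned to the pseudogene was 0.32, 0.479, 1.42, 9.21 and 1.26% in the 5 controls. In the 5 HFD+mTAC mice it was 3.02, 7.96, 3.54, 1.05 and 0.876%. The shares of mice TT-586 and TT-589 were the highest, and the groups overlapped. When the counts of both were added, the sums were 4362 to 5972 CPM in controls and 6215 to 7278 CPM in HFD+mTAC mice and still did not overlap. Their sum had a log2 fold change of 0.30 (SE 0.099, edgeR adjusted p = 0.411).

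Fabp4 (chromosome 3, 10204088 to 10208576, minus strand) encodes the adipocyte fatty acid binding protein, which capillary endothelial cells and macrophages also make. Its normalized counts were 1019, 980, 831, 793 and 1493 CPM in the 5 controls, and 1047, 1031, 1439, 1872 and 1054 CPM in the 5 HFD+mTAC mice. Control mouse TT-587 and HFD+mTAC mice TT-590 and TT-591 stood above the other 7 mice, which lay between 793 and 1054 CPM. For Fabp4 the log2 fold change was 0.33 (SE 0.20, 95% confidence interval -0.11 to 0.77, edgeR adjusted p = 0.723). Without control mouse TT-587 it was 0.51, and without HFD+mTAC mouse TT-591 it was 0.16, with edgeR adjusted p-values of 0.407 and 0.831.

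Fabp5 (chromosome 3, 10012548 to 10016607, plus strand), the epidermal fatty acid binding protein and a neighbour of Fabp4 on the chromosome, is also made by endothelial cells. Its normalized counts were 61.9, 68.5, 49.0, 48.9 and 78.7 CPM in the 5 controls, and 65.8, 57.4, 87.3, 107 and 64.2 CPM in the 5 HFD+mTAC mice. As for Fabp4, the highest mice were TT-587 among controls and TT-590 and TT-591 among HFD+mTAC mice. The log2 fold change was 0.32 (SE 0.18, 95% confidence interval -0.081 to 0.71, edgeR adjusted p = 0.706), and without mouse TT-591 it was 0.16. On TPM rescaled over the genes kept, Fabp5 was 85.4 to 114 in controls and 108 to 163 in HFD+mTAC mice, which overlapped (two-sided exact permutation test of this gene alone, p = 0.0476; limma adjusted p = 0.663). Deposited levels of Fabp5 were 11.9 to 21.0 TPM in controls and 13.1 to 21.1 TPM in HFD+mTAC mice. They overlapped as well (two-sided exact permutation test of log2(TPM + 1), p = 0.31). In the annotated transcripts, 9.21% of the 31-base words of Fabp5 also occur in other genes, mainly in pseudogenes such as Gm6166.

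Fabp4 made up a like share of the 3 binding proteins in both groups. Of the summed TPM of Fabp3, Fabp4 and Fabp5, Fabp4 held 18.6 ± 4.63% (SD, n = 5) in controls and 18.7 ± 3.91% (SD, n = 5) in HFD+mTAC mice, with ranges of 14.8 to 26.6% and 15.5 to 23.9%.

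**Figure D3:**
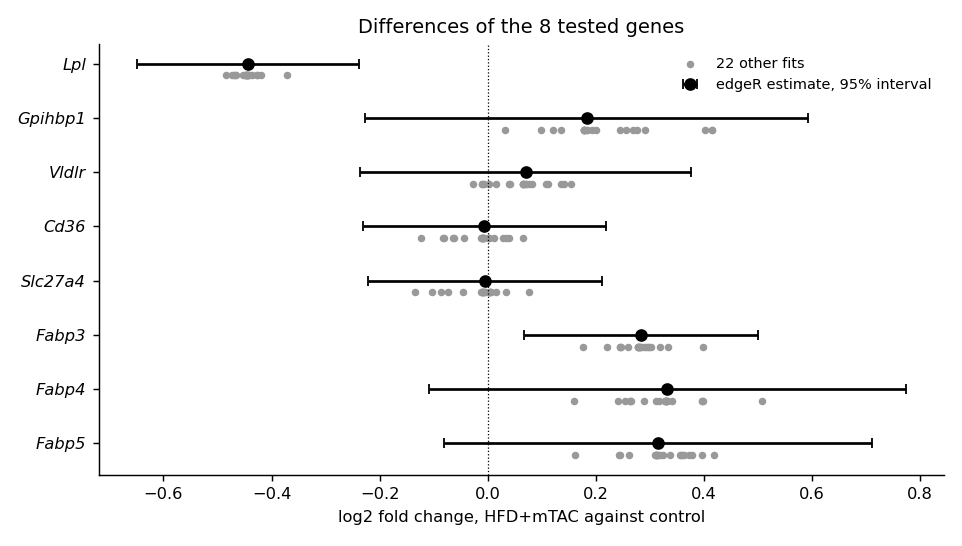
Log2 fold change of the 8 tested genes, HFD+mTAC against control, with the edgeR estimate and its 95% confidence interval in black and the estimates of 22 other fits in gray below it. The interval lies below 0 for Lpl (-0.65 to -0.24) and above 0 for Fabp3 (0.067 to 0.50) and spans 0 for the other 6 genes.

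Levels of different genes were compared per length, in TPM over all 10 mice. Fabp3 was the most abundant member at 952 ± 264 TPM (SD, n = 10), above 99.9% of the genes tested, followed by Lpl at 366 ± 96.7, Fabp4 at 218 ± 55.1 and Gpihbp1 at 61.2 ± 14 TPM. Cd36 at 18.6 ± 4.92 and Fabp5 at 16.6 ± 3.29 TPM came next, then Vldlr at 6.72 ± 1.7 TPM. The transporters Slc27a4 at 0.739 ± 0.166 TPM and Slc27a1, listed at 0 to 1.55 TPM, were lowest. Slc27a4 lay above only 44.5% of the genes tested.

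Most neighbours in this order were ordered alike within each mouse. Fabp3 exceeded Lpl, Fabp4 exceeded Gpihbp1, Gpihbp1 exceeded Cd36, Fabp5 exceeded Vldlr and Vldlr exceeded Slc27a4 in 10 of 10 mice. Lpl exceeded Fabp4 in 9 of 10 mice, the exception being HFD+mTAC mouse TT-591 with 263 against 294 TPM. Cd36 exceeded Fabp5 in 7 of 10 mice and Slc27a4 exceeded Slc27a1 in 8 of 10, and these pairs did not differ beyond their spread.

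The TPM of Cd36 and Slc27a4 rests on long effective lengths. In all 10 mice, the average effective length exceeded the longest transcript of GENCODE M21, at 4468 to 5925 bases against 3399 for Cd36 and 4493 to 7823 bases against 4054 for Slc27a4. The same held for Fabp3 in 9 of 10 mice and for Vldlr in 4 of 10. Gpihbp1, whose longest M21 transcript is 1652 bases, had effective lengths of 311 to 482 bases. By CPM its order with Cd36 was reversed, at 114 to 238 CPM for Gpihbp1 and 544 to 745 CPM for Cd36. M21 is an earlier release than the one the study names. None of the 9 members differed in effective length between the groups by the two-sided exact permutation test (adjusted p over 9 members 0.44 to 0.921, smallest unadjusted p 0.0952, for Gpihbp1).

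**Figure D4:**
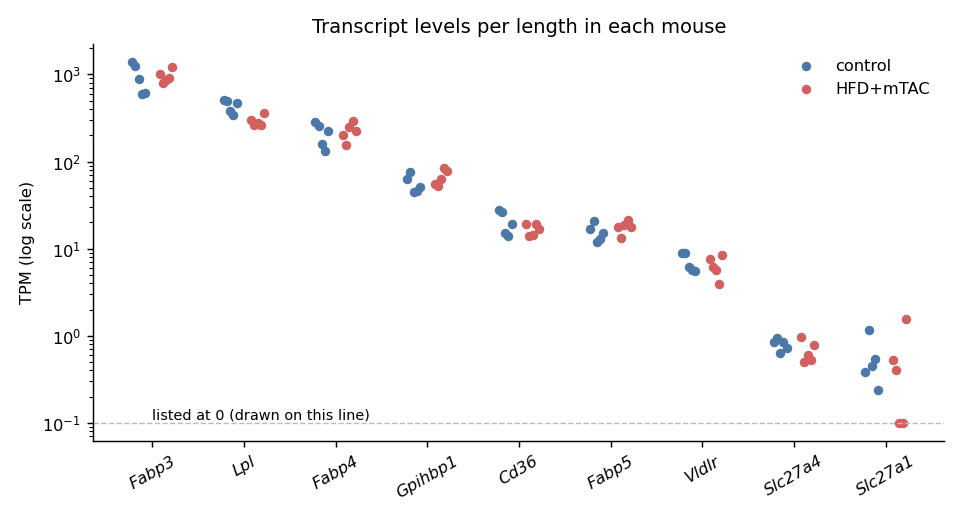
Deposited TPM (log axis) of the 9 genes in order of their mean, with 1 point per mouse for 5 control and 5 HFD+mTAC mice; values listed at 0 are drawn on the dashed line. Levels span from 597 to 1387 TPM for Fabp3 to 0 to 1.55 TPM for Slc27a1, and Cd36 and Fabp5 overlap.

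Gpihbp1, Fabp4 and Fabp5 varied together from mouse to mouse, also with group means removed. Of 28 pairs among the 8 tested members, examined after the values were seen, Fabp4 and Fabp5 were the most alike in log2 CPM over the 10 mice (Pearson r = 0.961, permutation p = 9e-05, adjusted over the pairs 0.00154; Spearman rho = 0.842, permutation p = 0.00332, adjusted 0.0465). Gpihbp1 and Fabp5 followed (r = 0.907, permutation p = 0.00011, adjusted 0.00154; rho = 0.855, permutation p = 0.00303, adjusted 0.0465). Without the 2 mice farthest from the median of the first gene, r was 0.94 and 0.793, and with group means removed it was 0.952 and 0.919. Gpihbp1 and Fabp4 had r = 0.847 (permutation p = 0.0012, adjusted 0.0112) and rho = 0.745 (permutation p = 0.0178, adjusted 0.127), with r = 0.678 without the 2 farthest mice and 0.849 with group means removed. Cd36 had r of 0.653 with Gpihbp1, 0.71 with Fabp4 and 0.728 with Fabp5, none of which passed after adjustment (permutation p = 0.0424, 0.0214 and 0.0167, adjusted 0.129, 0.0999 and 0.0935; rho 0.648, 0.564 and 0.709, adjusted permutation p 0.192, 0.298 and 0.127). Without the 2 mice farthest in Cd36 or, for the first pair, in Gpihbp1, these r were 0.326, 0.473 and 0.47.

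Endothelial markers moved with these genes and with Cd36. The mean log2 CPM of 8 endothelial markers correlated over the 10 mice with Gpihbp1 at r = 0.905 (rho = 0.77), with Fabp5 at r = 0.824 (rho = 0.782), with Cd36 at r = 0.819 (rho = 0.83) and with Fabp4 at r = 0.779 (rho = 0.624). The permutation p-values of r, adjusted over 32 relations of members with marker lists, were 0.00885, 0.0234, 0.0351 and 0.0351, and those of rho were 0.0813, 0.0813, 0.0813 and 0.214. Without the 2 mice farthest from the median of the member, r was 0.836 for Gpihbp1, 0.765 for Fabp5, 0.71 for Cd36 and 0.513 for Fabp4. The mean of 8 cardiomyocyte markers ran the other way, with r of -0.854 for Gpihbp1, -0.889 for Fabp5, -0.785 for Fabp4 and -0.549 for Cd36 (rho -0.77, -0.77, -0.576 and -0.491; permutation p-values of r adjusted over the same relations 0.00885, 0.00885, 0.0351 and 0.218), and r of -0.652, -0.636, -0.916 and -0.0027 without the 2 farthest mice. For Cd36 this relation rested on those mice. The mean of 8 fibroblast markers had r of 0.69, 0.689, 0.547 and 0.492 with Gpihbp1, Fabp5, Fabp4 and Cd36. The permutation p-values of these r, adjusted over the same relations, were 0.103, 0.103, 0.218 and 0.251. For the mean of 8 macrophage markers, r was 0.0708, 0.204, 0.0671 and 0.439 in the same order (adjusted permutation p 0.909, 0.728, 0.909 and 0.314). All points share their libraries and their scaling.

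The endothelial markers themselves did not separate the groups. Of 8 markers, 4 were higher and 4 were lower, with a median log2 fold change of 0.0019 and summed levels of 89.3 to 167 TPM in controls and 70.8 to 147 TPM in HFD+mTAC mice (two-sided exact permutation test, p = 0.603). The values of Lpl and Fabp3 did not overlap between the groups, so their correlations are given only with group means removed, as a description of 10 mice. Between the 2 genes r was then -0.368. With the endothelial markers it was 0.177 for Lpl and -0.0784 for Fabp3, and with the cardiomyocyte markers it was 0.252 and -0.115. For Lpl, the relation with the endothelial markers had opposite signs among the controls and among the HFD+mTAC mice. The relation with the cardiomyocyte markers was positive among the HFD+mTAC mice and very weak among the controls. Between Lpl and Fabp3, and between Fabp3 and the cardiomyocyte markers, the signs were also opposite in the groups. A group of 5 is too small to give its own r, so no conclusion is drawn from these signs.

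**Figure D5:**
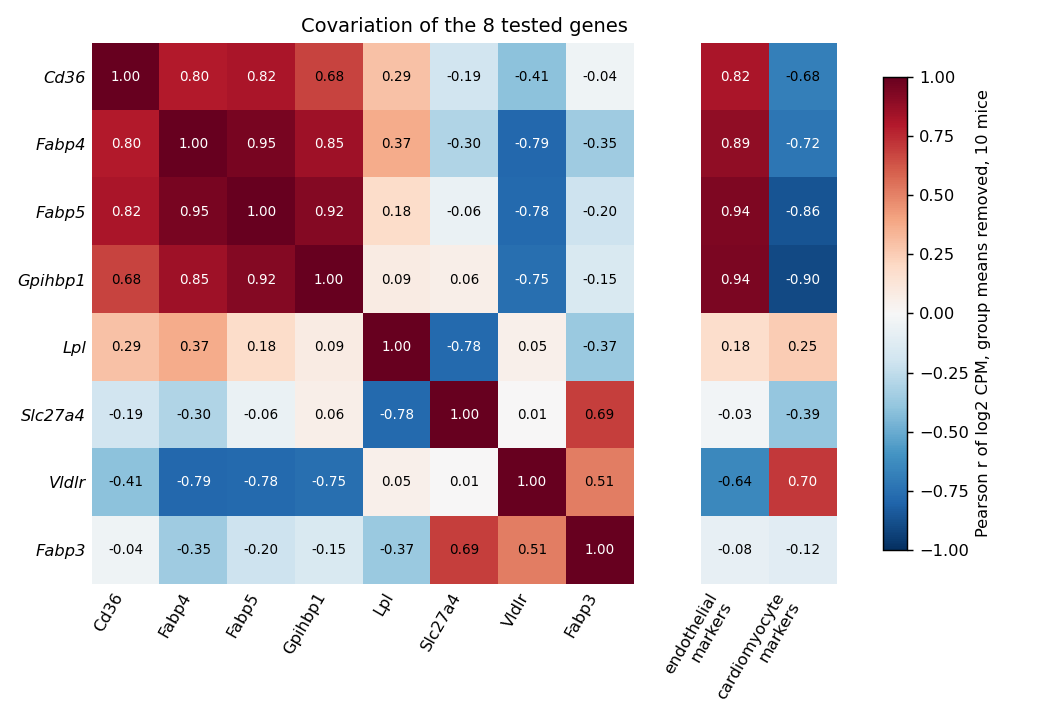
Pearson r of log2 CPM over 10 mice, with the mean of each group removed, between the 8 tested genes and, in the right columns, between each gene and the mean of 8 endothelial or 8 cardiomyocyte markers. Gpihbp1, Fabp4 and Fabp5 have r of 0.849 to 0.952 with each other, and Cd36 has lower r of 0.676 to 0.816 with them; over the 10 mice the Cd36 pairs did not pass after adjustment.

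The 3 genes whose log2 CPM was most alike were taken for each member from the 10109 others with a mean of at least 5 CPM, as a description over 10 mice. This choice takes the highest of many r, so the r are high by selection and were not tested. For Lpl and Fabp3 this choice includes the difference between the groups, and r is given with group means removed. For Gpihbp1 they were S100a16, Esam and Pecam1 (r = 0.986, 0.983 and 0.974), of which Esam and Pecam1 encode endothelial junction proteins. Esam and Pecam1 are also among the endothelial markers described above. For Fabp4 they were Ptms, Calcrl and 1810011O10Rik (r = 0.984, 0.983 and 0.98), and for Fabp5 they were Fam117b, Fam102b and Rbp7 (r = 0.982, 0.974 and 0.973). Calcrl encodes the receptor subunit for adrenomedullin.

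For Lpl the most alike were Kdelc1, Gcat and Fah (r with group means removed 0.861, 0.703 and 0.58). Gcat and Fah encode enzymes of threonine and tyrosine breakdown, and their log2 fold changes were -0.83 and -0.55 (edgeR adjusted p = 0.143 and 0.094). For Fabp3 they were Lamb1, Erich1 and Mtss1l (r with group means removed 0.85, 0.941 and 0.888). For Cd36 they were 2810403A07Rik, Ggta1 and Ptbp3 (r = 0.951, 0.937 and 0.931), for Vldlr 9630033F20Rik, Frmd6 and Oplah (r = 0.98, 0.956 and 0.952), and for Slc27a4 Col5a1, Prdx6 and Jmjd8 (r = 0.938, 0.933 and 0.927).

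Markers of adipocytes were low, and no summed marker level of the other cell types described next separated the groups. Fabp4, Cd36 and Lpl are abundant in adipocytes, yet 8 adipocyte markers summed to 1.53 to 2.60 TPM in controls and 1.30 to 2.29 TPM in HFD+mTAC mice, and 7 of the 8 had a mean under 1 TPM. Among the defining ones, Adipoq had a mean of 0.0337 TPM and Plin1 was listed at 0 in 9 of 10 mice, while Fabp4 had a mean of 218 TPM. Ucp1, which defines brown adipocytes, was listed at 0 in all 10 mice, and 5 brown adipocyte markers summed to 3.01 to 7.83 TPM in controls and 3.85 to 6.91 TPM in HFD+mTAC mice. One of these 5, Cidea, did separate the groups, at 32.9 to 45.0 CPM in controls and 46.5 to 55.1 CPM in HFD+mTAC mice (edgeR adjusted p = 0.285). Of these 5 markers, 3 were tested, with 1 higher and 2 lower. The lower ones, Dio2 and Ppargc1a, had log2 fold changes of -0.71 and -0.13 (edgeR adjusted p = 0.607 and 0.862).

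Macrophage markers summed to 26.8 to 57.7 TPM in controls and 28.1 to 37.5 TPM in HFD+mTAC mice, with 3 of 8 higher. Sums were 118.7 to 192 against 100.3 to 165 TPM for 8 fibroblast markers (5 higher), 68.7 to 123 against 55.1 to 102 TPM for 8 pericyte and smooth muscle markers (2 of 7 tested higher) and 90.2 to 877 against 95.4 to 861 TPM for 5 blood markers (none higher). For 8 capillary endothelial markers the sums were 73.8 to 136 against 63.1 to 129 TPM, with 5 higher. No gene of these lists passed the adjusted threshold of edgeR. Their part in the results for the members was not tested.

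The genes that act around the members were described by 6 lists, which hold 97 genes, of which 74 were tested. No gene passed the adjusted threshold of edgeR in either direction, and 6 (8.11%) had an unadjusted p under 0.05, against 8.25% of all genes tested. DESeq2 called 2, against 0.92% of all genes it gave an adjusted p. The estimate was above 0 for 37 and below 0 for 37, with a median log2 fold change of -0.0069 against 0.0013 for all genes tested.

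Among regulators of capillary lipolysis, 15 of 20 genes were tested, with 8 higher, 7 lower and a median log2 fold change of 0.048. Hspg2, which encodes the heparan sulfate proteoglycan perlecan of the basement membrane, was 690 ± 32.1 CPM (SD, n = 5) in controls and 847 ± 61.5 CPM (SD, n = 5) in HFD+mTAC mice without overlap, with a log2 fold change of 0.30 (SE 0.077, edgeR adjusted p = 0.262). Pcsk6, a proprotein convertase, had a log2 fold change of 0.22 (edgeR adjusted p = 0.511).

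Another 2 genes of this list had an unadjusted p under 0.05 and are named after their values were seen. Angptl4, which encodes a secreted inhibitor of lipoprotein lipase, was 4.85, 5.46, 5.04, 4.23 and 3.54 CPM in the 5 controls. In the 5 HFD+mTAC mice it was 19.1, 7.07, 10.6, 9.55 and 5.70 CPM, each above the highest control, and mouse TT-588 was the highest. The log2 fold change was 1.16 (SE 0.29, edgeR adjusted p = 0.262, DESeq2 adjusted p = 0.0172). With transcript length taken into account the estimate turned to between -0.35 and -0.032, and the TPM levels were 0.288 on average. Sdc4, a cell-surface heparan sulfate proteoglycan, had a log2 fold change of -0.48 (edgeR adjusted p = 0.488).

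Of the lipoprotein receptors and their regulators, 11 of 14 were tested, with 8 higher and 3 lower. Mylip, a ubiquitin ligase that marks receptors of the LDL receptor family for degradation, was 40.7 ± 7.01 CPM (SD, n = 5) in controls and 56.3 ± 10.7 CPM (SD, n = 5) in HFD+mTAC mice (log2 fold change 0.47, SE 0.14, edgeR adjusted p = 0.357). Lrp1, a large endocytic receptor, had a log2 fold change of 0.19 (edgeR adjusted p = 0.671).

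Of other Slc27 transporters and membrane proteins, 8 of 15 were tested, with 4 higher and 4 lower. Cav3, the muscle caveolin, had a log2 fold change of -0.17 and Cav1, the caveolin of endothelial cells and adipocytes, one of 0.15 (edgeR adjusted p = 0.642 and 0.887). All 19 genes of CD36 trafficking and palmitoylation were tested, of which 7 were higher and 12 lower. The vesicle fusion proteins Vamp4 and Vamp2 had log2 fold changes of -0.18 and -0.15 (edgeR adjusted p = 0.704 and 0.706).

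Of other lipid-binding proteins, 8 of 15 were tested, with 3 higher and 5 lower. Dbi, the acyl-CoA binding protein, was 140 ± 9.06 CPM (SD, n = 5) in controls and 169 ± 20.3 CPM (SD, n = 5) in HFD+mTAC mice (log2 fold change 0.27, SE 0.093, edgeR adjusted p = 0.432). Rbp7, a retinol-binding protein of endothelial cells, had a log2 fold change of 0.48 (edgeR adjusted p = 0.621). Of the genes of endothelial control of fatty acid transport, 13 of 14 were tested, with 7 higher and 6 lower, and Pparg and Notch1 had log2 fold changes of 0.46 and 0.11 (edgeR adjusted p = 0.696 and 0.757).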

How the data were processed

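Left ventricular RNA of 5 control and 5 HFD+mTAC mice was analyzed. According to the study's methods, the authors trimmed reads with fastp and quantified them with Salmon (version 1.6.0 per the labels) on GENCODE transcripts of GRCm38, with sequence, GC and position bias models, and summed transcripts to genes with tximport. The labels name the build hg38, which is human and does not match the mouse gene names of the tables. The sources differ on the reads (paired-end in the methods, single-end in the labels). The authors deposited expected counts without normalization, TPM values, and average effective transcript lengths in bases. No column was left unmapped.

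Of 29564 symbols, 27812 matched GENCODE M21, 921 matched RefSeq names or synonyms and 831 did not match. Coordinates come from M21. Genes were tested when protein-coding, not mitochondrial and with at least 1 count in 9 of 10 mice. The expected counts were rounded and tested with edgeR 4.0.16 in R 4.3.3 (TMM, quasi-likelihood test, no covariate, common dispersion 0.0423). Libraries of a group differed well beyond sampling noise (chi-square per degree of freedom at least 13.2). In simulated data of 5 against 5 mice over 13315 genes, edgeR called 83 of 100 genes that were given a log2 change of 1, 18 of 100 given 0.5 and 5 unchanged genes. Single values were compared by two-sided exact permutation over 252 arrangements, and correlations by 100000 permutations (numpy 2.4.6).

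Alternatives were DESeq2 1.42.0 and its size factors, upper-quartile factors, limma 3.58.1 on rescaled log2(TPM + 1) and log2(TPM + 0.1), other filters, all biotypes, length offsets, the robust fit and the omission of each mouse. The addition of Fabp3-ps1 counts to Fabp3 and the omission of mice TT-583 and TT-584 were added after seeing the data. Named genes are the members, the 2 genes of each pathway list with the smallest p and a mean of at least 1 TPM, and the 3 genes most correlated with each member. The members and lists were chosen with earlier results of these data known.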

Additional observations from a re-analysis of the deposited data

Results flagged for a closer look

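In groups of 5 mice, the gap between an extreme mouse and its nearest neighbour was compared with the group's range (Dixon's critical value 0.71) for the members and 4 other genes in CPM and TPM, 52 groups of values in all. Chance alone passes this limit in about 5% of groups, and 3 passed.

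No member had such a mouse. Fabp3-ps1, the pseudogene whose sequence overlaps that of Fabp3, was 477 CPM in control mouse TT-586 and 19.1 to 79.4 CPM in the other control mice, and 442 TPM against 21.9 to 76.9 TPM. Fabp3 itself was 4701 CPM in this mouse and 4308 to 5953 CPM over all controls.

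Angptl4 was 0.49 TPM in HFD+mTAC mouse TT-588 and 0.145 to 0.2 TPM in the other HFD+mTAC mice. It rests on 298 counts at most in any mouse.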

How the results depend on the processing

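The count of all genes called moved from 8 with edgeR to 120 with DESeq2, 1 with limma at either pseudocount, 1 with length offsets, 4 without mice TT-583 and TT-584, and 1 to 9 when each mouse was left out. DESeq2 called 1 member, Lpl (log2 fold change -0.45), and 2 other pathway genes, Angptl4 and Hspg2. Each other fit called none of either. Lpl, Gpihbp1, Fabp3, Fabp4 and Fabp5 kept their direction in all 22 alternatives. Values near 0 turned sign. Vldlr was -0.00995 and -0.0107 with limma, -0.0263 with length offsets and -0.0069 to 0.15 when each mouse was left out. Cd36 was 0.000954 with upper-quartile factors, 0.0646 without mice TT-583 and TT-584 and -0.065 to 0.0392 when each mouse was left out. Slc27a4 was 0.00254, 0.0765 and -0.0735 to 0.0347 in the same fits. Angptl4 was -0.101 and -0.0321 with limma and -0.352 with length offsets. The cause was not tested. The order of mean TPM, the ratios and the differences in effective length moved by less than their spread in all alternatives run. Slc27a1 gave a value only with no filter or with filterByExpr (-0.24 and -0.23, edgeR adjusted p 0.964 and 0.972), with 2 mice at 0. No paired analysis was possible because the mouse numbers differ between the groups. Intervals are for the difference between the groups and rest on these 10 mice, with variances partly shared across all genes tested. In the simulation most genes given a log2 change of 0.5 were not called. Those genes were drawn at random among genes with a mean of at least 5 CPM, so their share does not describe single members.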

Other observations

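Cidea, which encodes a lipid droplet protein and was among the brown adipocyte markers, is named after its values were seen. It was 41.2, 45.0, 41.9, 32.9 and 33.3 CPM in the 5 controls, and 46.5, 50.7, 55.0, 55.1 and 46.9 CPM in the 5 HFD+mTAC mice. The groups did not overlap, and the log2 fold change was 0.39 (SE 0.11, edgeR adjusted p = 0.285). The other brown adipocyte markers tested, Dio2 and Ppargc1a, were lower in HFD+mTAC mice (log2 fold changes -0.71 and -0.13). Ucp1 was listed at 0 in all 10 mice.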
